A study of Danio rerio with 16 samples.

Results

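Claudin transcripts were followed in whole zebrafish embryos, in 16 RNA libraries of 6 groups. The claudins were taken as every gene whose deposited symbol starts with cldn in lower case and that had at least 10 counts summed over the 16 libraries. Left out of the 31 such rows were the myelin gene cldnk and the symbols that start with cldnd, namely the claudin domain genes cldnd1a and cldnd1b and also cldnd, itself a lettered claudin with 29 counts over all libraries, and 9 rows with capital symbols were not taken. This gave 27 of 31388 genes. Of these, 25 passed the filter on low counts and were tested. The other 2, cldng and cldnj, had 35 and 41 counts over all libraries together and are not tested below. All embryos were wild type. The particle groups had been injected into the yolk at 2 days post fertilization (dpf) with 1 nl of red fluorescent polystyrene beads at 5 mg/ml in polyvinylpyrrolidone, and were sampled at 1 and 3 days post injection (dpi), which is 3 and 5 dpf, with 3 libraries at each time. The mock groups had received polyvinylpyrrolidone alone, with 2 libraries at each time. The control groups were not injected, with 3 libraries at each time. The labels speak of 10 frozen embryos per group and name the libraries biological replicates, without saying whether each came from its own clutch or injection session. They give 700 nm as the bead diameter, whereas the headers of the replicate C particle libraries read 70 nm, and which holds for these libraries is unsettled here.

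Claudins are multi-pass membrane proteins that form the strands of tight junctions, the belts that seal epithelial and endothelial cells to their neighbours. Some claudins, such as mammalian claudins 1 and 5, make the seal tighter, and others, such as mammalian claudins 2, 10 and 15, form pores that let selected ions through, so the mixture a tissue makes sets how leaky it is. Fish hold extra claudin copies, among them the lettered genes cldna to cldnj, several of which are known from zebrafish skin, ear and kidney. In zebrafish larvae, cldn15a and cldn15la are known from the gut, and cldn5a from the barriers of the brain.

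By symbol the claudins fell into 9 lettered genes, 9 named after mammalian pore-forming claudins, 8 named after barrier-forming ones, and cldn12. They lie on 14 chromosomes. In the RefSeq annotation of the GRCz12tu assembly, which is not the GRCz10 build of the counts, all 27 were found and 11 had another claudin as their next gene. One such run on chromosome 15 holds cldnj, cldne, cldnf and cldna in this order. Another on chromosome 21 holds cldnh, cldnc and cldnb, of which RefSeq calls cldnh cldn3c and cldnc cldn3d. The gene cldn17 is called cldn8.3 there and sits beside further claudin 8 genes, so its place among the pore-forming names rests on the deposited symbol alone. Neighbouring copies can share sequence, and how reads shared between genes were counted is not given in the sources used here, so values of adjacent copies may not be fully separate.

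Library totals ran from 8679739 to 19840148 counts. Levels are given as CPM, counts scaled to library size by trimmed mean of M values (TMM), a unit that is not corrected for transcript length, so that levels of different genes are not compared. In such whole-embryo RNA fewer cells of a type and less RNA per cell cannot be told apart. The summed claudin signal was 716, 669 and 503 CPM in particle embryos at 1 dpi, 732 and 648 CPM in mock embryos and 631, 548 and 444 CPM in control embryos. At 3 dpi it was 575, 573 and 532 CPM in particle embryos, 516 and 439 CPM in mock embryos, and 510.2, 569.8 and 597.6 CPM in control embryos. Replicate C was the lowest of its group at 1 dpi in particle and in control embryos, and there is no mock replicate C. The headers call the replicate C libraries combined. Replicate A of the mock embryos at 3 dpi stood apart, with the lowest TMM factor (0.694). It also had the largest share of counts in its top 100 genes (38.8%, against 19.9% to 32.0% in the other libraries). Most calls in comparisons with mock embryos of 3 dpi are therefore also given without it. Replicate B of that group had the next lowest TMM factor (0.886), the lowest total (8679739 counts) and the largest mitochondrial share (6.13%). Both libraries of the group had the fewest genes detected, 25741 and 25785. Fits without replicate A rest on replicate B alone for this group, so they are no check against a library free of such differences.

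**Figure D1:**
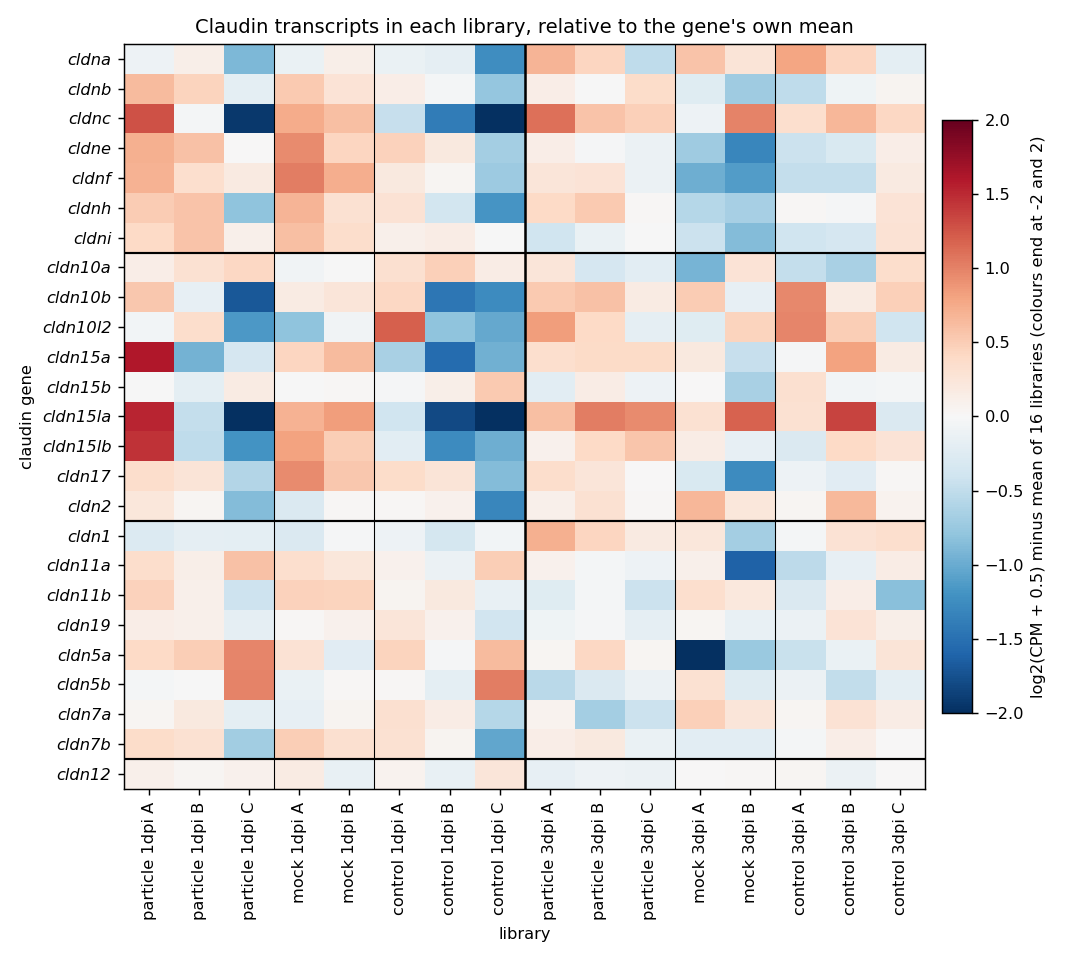
Heat map of the 25 tested claudins (rows, in order lettered, pore-forming, barrier-forming and cldn12, parted by lines) in 16 libraries (columns). Colour is log2(CPM + 0.5) minus the gene's mean over all libraries. Lettered genes such as cldnf and cldne are darkest blue in the mock libraries at 3 dpi, and cldn15la and cldnc in replicate C at 1 dpi.

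Particle against mock embryos at 3 dpi asks what the beads add to the injection and its vehicle. In this comparison 2 of the 25 tested claudins were higher at an edgeR adjusted p below 0.05, against 5.29% of all tested genes, and none was lower, against 3.4% of all, or 8.69% in both directions. One is lettered, cldnf, and the other is the barrier-forming cldn5a. Limma-voom called cldn5a (adjusted p = 0.0398) but not cldnf. DESeq2 called both, and also cldne (adjusted p = 0.0335). The shares of all tested genes that limma-voom and DESeq2 called in this comparison are not given here. Their calls are therefore not read as a result about claudins in particular. The level of cldnf was 6.77, 6.88 and 5.14 CPM in particle embryos at 3 dpi, against 2.61 and 2.34 CPM in mock embryos. The groups did not overlap, and the difference was 1.33 on the log2 scale (SE 0.35, adjusted p = 0.0364). It was 1.41 (adjusted p = 0.272) without mock replicate A. Control embryos had 3.93, 3.91 and 6.44 CPM of it, above both mock libraries and overlapping with the particle libraries.

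The level of cldn5a, a claudin of the brain barriers, was 7.55, 9.89 and 7.55 CPM in particle embryos at 3 dpi, against 0.98 and 4.17 CPM in mock embryos. The mock values rest on 9 and 32 counts, and both lie below every particle library. The difference was 1.72 (log2, SE 0.46, adjusted p = 0.0370). Its size was set by 1 library: without mock replicate A it was 0.99 (adjusted p = 0.353), and without mock replicate B it was 3.08 (adjusted p = 0.00191). Control embryos had 5.21, 6.597 and 8.84 CPM. Their 3 libraries overlap with the particle libraries and stand above both mock libraries.

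**Figure D2:**
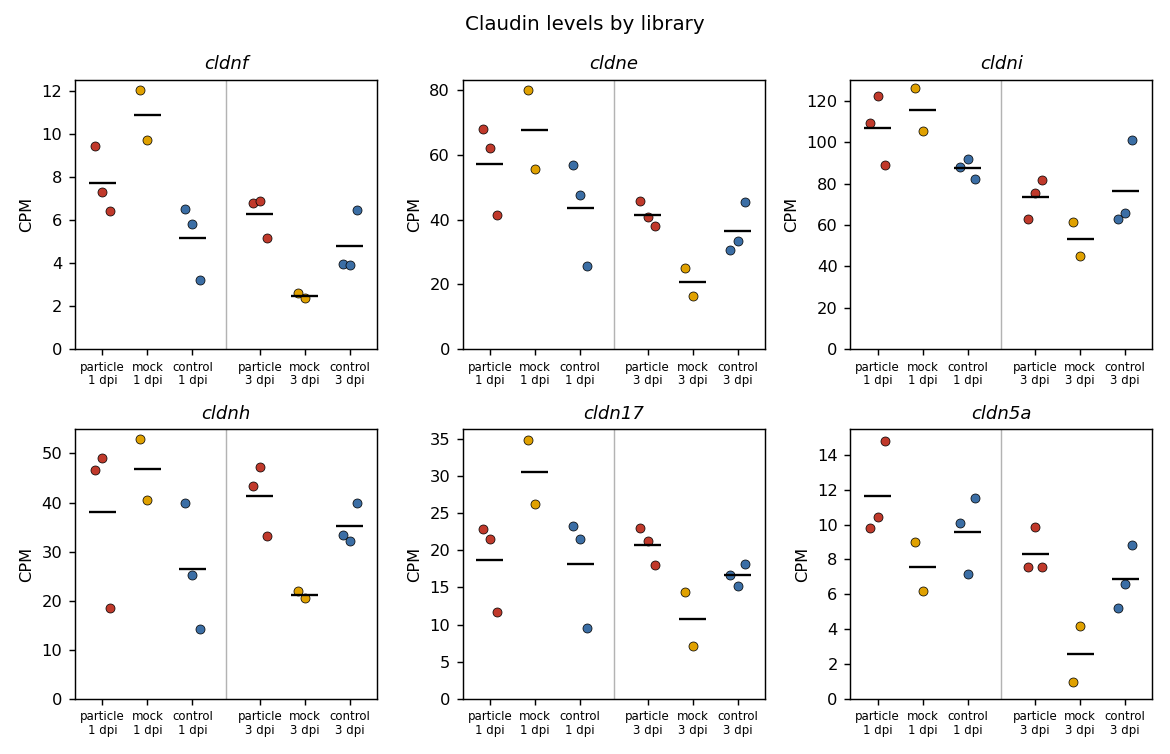
CPM of 6 claudins by library, with particle (red), mock (yellow) and control (blue) embryos at 1 dpi and 3 dpi in each panel; bars are group means. For all 6 genes the mock libraries at 3 dpi lie below every particle and control library of that time, and for cldnf, cldni, cldnh and cldn17 the mock libraries at 1 dpi lie above every control library. The 6 were chosen for display. Mock and control embryos at 3 dpi were apart, with mock lower, for 7 of the 25 tested claudins and for 20.7% of all tested genes.

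The next smallest p values in this comparison did not pass with edgeR. They belonged to the lettered gene cldne, 1.00 (log2, SE 0.33, adjusted p = 0.0724), and to the barrier-forming cldn7a, -0.68 (SE 0.25, adjusted p = 0.0998). The level of cldne, a neighbour of cldnf on chromosome 15, was 45.6, 40.7 and 38.1 CPM in particle embryos, against 25.04 and 16.4 CPM in mock embryos. That of cldn7a, a claudin of epithelia of many organs, was 50.2, 29.8 and 35.2 CPM in particle embryos, against 66.4 and 56.4 CPM in mock embryos, so here the mock libraries were the higher ones. Over the 25 tested claudins the median difference was 0.40 (log2), against 0.03 over all tested genes, and 18 of the 25 values were above 0. Groups did not overlap for 9 higher claudins, against 22.7% of all tested genes, and for 3 lower ones, cldn12, cldn11b and cldn7a, against 20.4% of all. The 9 were cldnb, cldne, cldnf, cldnh, cldni, cldn15a, cldn17, cldn5a and cldn7b.

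By role, 6 of the 7 tested lettered claudins had a value above 0 (median 0.65), as did 8 of the 9 pore-forming names (median 0.40) and 4 of the 8 barrier-forming names (median 0.12). These lists follow the deposited symbols, while RefSeq calls cldnh cldn3c, cldnc cldn3d and cldn17 cldn8.3. The medians are therefore not read as a contrast between barrier-forming and other claudins. The lettered gene cldnh had 43.3, 47.2 and 33.3 CPM in particle embryos, against 21.99 and 20.4 CPM in mock embryos (0.96, SE 0.42, adjusted p = 0.156). The level of cldn17 was 22.99, 21.2 and 17.99 CPM in particle embryos, against 14.4 and 7.16 CPM in mock embryos (0.94, SE 0.39, adjusted p = 0.137). Neither passed, although in both the groups were apart. Among the A and B libraries alone, 6 claudins were higher: cldnf, cldnh, cldne, cldn17, cldn5a and cldn7b, against 12.9% of all genes tested in that fit. With the replicate letter as a block 5 were higher: cldnf, cldn5a, cldne, cldn17 and cldnh, against 11.6% of all. No claudin passed without mock replicate A, without particle replicate A or without particle replicate B, and only cldn5a passed without mock replicate B. Without mock replicate A 0.00829% of all tested genes passed in this comparison, and without mock replicate B 16.2%.

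Particle and control embryos at 3 dpi, which differ by beads, vehicle and injection together, showed no claudin past the threshold with edgeR, DESeq2 or limma-voom, as was the case for 0% of all tested genes with edgeR. At an unadjusted p below 0.05 there were also 0 claudins, against 1.54% of all tested genes, and in no claudin were the groups apart, against 3.16% of all tested genes higher and 2.58% lower. The smallest p values were those of cldn7a (-0.48 on the log2 scale, SE 0.23), cldnb (0.34, SE 0.26), cldnf (0.37, SE 0.28) and cldn19 (-0.20, SE 0.16), all with an adjusted p of 1. The claudin median was 0.06, against 0.00 over all tested genes. For cldn7a the control libraries had 49.4, 58.5 and 52.97 CPM, of which the lowest lies below the highest particle library.

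Mock against control embryos at 3 dpi shows vehicle and injection without beads. No claudin passed with edgeR or limma-voom, against 1.63% of all tested genes with edgeR, of which 1.2% were lower and 0.436% higher in mock embryos, while DESeq2 called 1, cldn5a (-1.45, adjusted p = 0.0233), against 7.17% of all. At an unadjusted p below 0.05 edgeR gave 4, all lower in mock embryos, against 11.9% of all tested genes lower. These were cldn5a (-1.46 on the log2 scale, SE 0.46, adjusted p = 0.0994), cldnf (-0.96, SE 0.35, adjusted p = 0.143), cldne (-0.82, SE 0.33, adjusted p = 0.174) and cldni (-0.53, SE 0.22, adjusted p = 0.193). The size and the call of cldn5a turned on 1 library, with -0.73 (adjusted p = 0.665) without mock replicate A and -2.82 (adjusted p = 0.00396) without mock replicate B. No claudin passed without mock replicate A, against 0% of all tested genes, and then cldnf was at -1.04 (adjusted p = 0.577), cldne at -1.15 (adjusted p = 0.496) and cldni at -0.77 (adjusted p = 0.477), with a median over the claudins of -0.38. Without mock replicate B only cldn5a passed, against 11.9% of all, and cldne was at -0.55 and cldni at -0.33. The level of cldne was 25.04 and 16.4 CPM in mock embryos, against 30.7, 33.3 and 45.3 CPM in control embryos. That of cldni, a lettered claudin known from the skin, was 61.4 and 44.9 CPM in mock embryos, against 62.9, 65.6 and 101 CPM in control embryos; the nearest libraries, 61.4 CPM in mock and 62.9 CPM in control embryos, were close. The median over the tested claudins was -0.34, against -0.01 over all tested genes, and 8 of 25 values were above 0. Groups were apart for 7 lower claudins, against 20.7% of all tested genes, and for 1 higher claudin, cldn11b, against 18.3% of all.

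**Figure D3:**
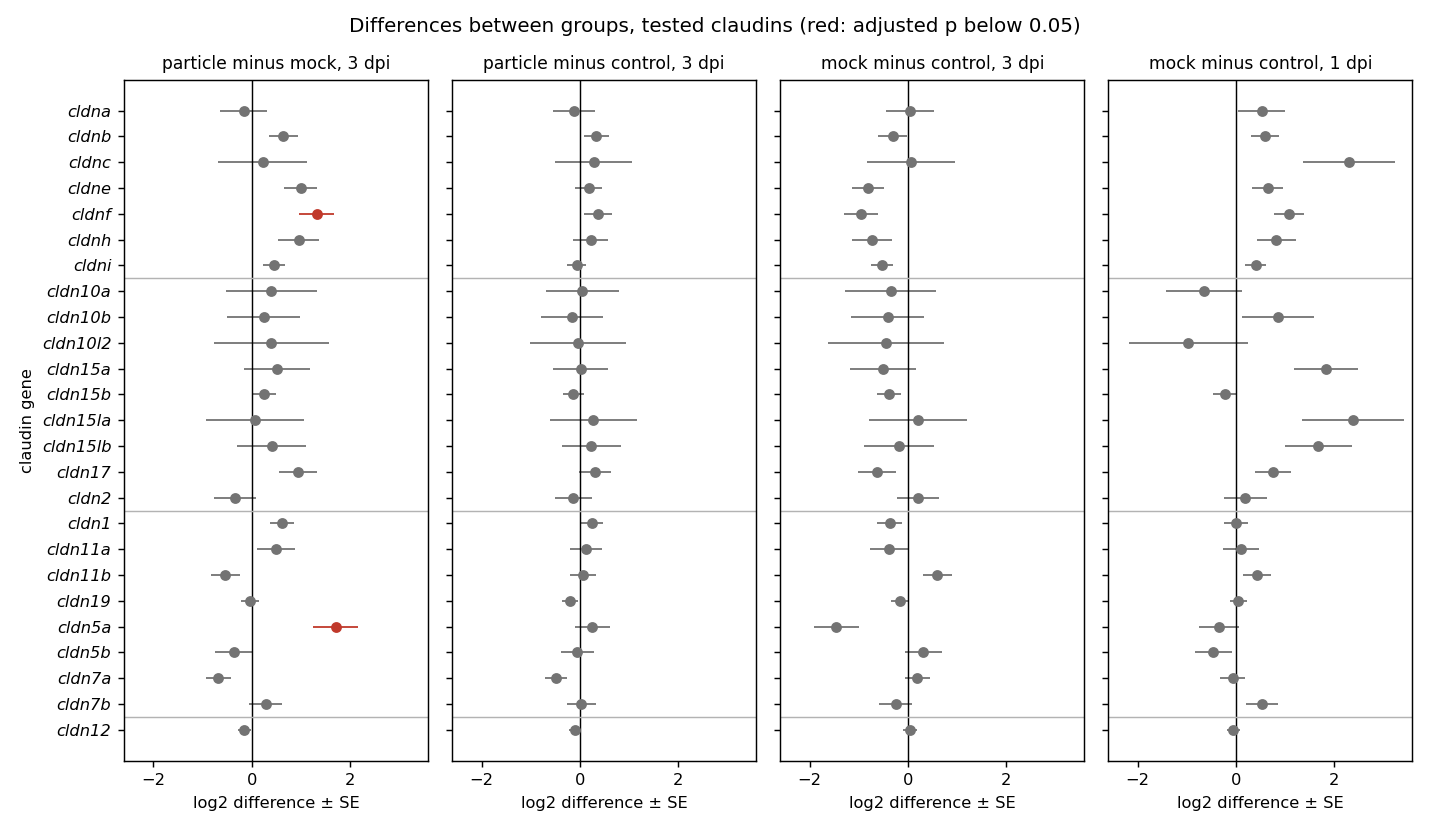
Log2 difference ± SE of the 25 tested claudins in 4 comparisons: particle minus mock, particle minus control and mock minus control at 3 dpi, and mock minus control at 1 dpi. Red points, cldnf and cldn5a in the first panel, have an edgeR adjusted p below 0.05; the values of particle minus control stay between -0.48 and 0.37.

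At 1 dpi most claudins had a higher fitted level in mock than in control embryos, 18 of 25, but no claudin passed the threshold with edgeR, DESeq2 or limma-voom, against 0% of all tested genes with edgeR. At an unadjusted p below 0.05 edgeR gave 5 claudins, all higher in mock embryos, against 7.1% of all tested genes higher, and the median was 0.44 (log2), against -0.03 over all tested genes. Mock and control libraries were apart for 12 higher claudins, against 19.5% of all tested genes, and for 1 lower claudin, cldn10a, against 16.7% of all. All 7 tested lettered claudins had a value above 0, with a median of 0.65. The summed level of the lettered claudins was 324.5 and 257.5 CPM in mock embryos, against 229.3, 202.3 and 143.1 CPM in control embryos. The lowest of these was control replicate C, and mock embryos have no replicate C. The smallest p was that of cldnf, with 12.02 and 9.704 CPM in mock embryos, against 6.51, 5.79 and 3.21 CPM in control embryos (1.08, SE 0.31, adjusted p = 0.438). The next were cldn15a (1.84, SE 0.65), cldnc (2.31, SE 0.93) and cldn15lb (1.68, SE 0.68), each with an adjusted p of 0.438.

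For 5 claudins, cldnf, cldnh, cldni, cldn17 and cldn7b, both mock libraries lay above every control library at 1 dpi and below every control library at 3 dpi. The same held for 5.48% of all tested genes. For cldn17 this was 34.95 and 26.2 CPM in mock embryos and 23.3, 21.6 and 9.59 CPM in control embryos at 1 dpi, and 14.4 and 7.16 CPM in mock embryos and 16.7, 15.2 and 18.2 CPM in control embryos at 3 dpi. For cldnh it was 52.97 and 40.5 CPM in mock embryos and 40, 25.2 and 14.2 CPM in control embryos at 1 dpi, and 21.99 and 20.4 CPM in mock embryos and 33.5, 32.2 and 39.9 CPM in control embryos at 3 dpi. For cldn7b, an epithelial claudin, the margins were small, with 89.6 and 79.8 CPM in mock embryos and 78.99, 66.2 and 30.8 CPM in control embryos at 1 dpi, and 55.2 and 55.1 CPM in mock embryos and 62.2, 70.3 and 64.1 CPM in control embryos at 3 dpi. The change of the mock minus control difference between the times was tested directly as an interaction, and no claudin passed with edgeR or limma-voom, against 0% of all tested genes with edgeR. At an unadjusted p below 0.05 there were 7, against 23.3% of all tested genes, and DESeq2 called 2, against 6.46% of all. The smallest p values were those of cldnf (-2.04, SE 0.47, adjusted p = 0.0702), cldne (-1.46, SE 0.45, adjusted p = 0.107), cldni (-0.94, SE 0.31, adjusted p = 0.119) and cldnh (-1.56, SE 0.57, adjusted p = 0.144). Without mock replicate A of 3 dpi no claudin passed, against 0% of all tested genes, and cldnf was at -2.12 (adjusted p = 0.256). Without mock replicate B of 3 dpi cldn5a (-2.48, adjusted p = 0.0197) and cldnf (-1.98, adjusted p = 0.0475) passed, against 10% of all.

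The comparison of mock embryos at 3 dpi with mock embryos at 1 dpi held the most claudins past the threshold. There 5 were lower at 3 dpi and none higher, against 12.5% lower and 11.1% higher of all tested genes, or 23.6% in both directions. Of them 3 are lettered, cldnf, cldne and cldni, and the others are cldn17 and cldn5a. The level of cldnf was 2.61 and 2.34 CPM at 3 dpi, against 12.02 and 9.704 CPM at 1 dpi (-2.13 on the log2 scale, SE 0.38, edgeR adjusted p = 0.00236). That of cldne was 25.04 and 16.4 CPM at 3 dpi, against 80.1 and 55.7 CPM at 1 dpi (-1.71, SE 0.36, adjusted p = 0.00522). For cldni the levels were 61.4 and 44.9 CPM at 3 dpi, against 126 and 106 CPM at 1 dpi (-1.12, SE 0.24, adjusted p = 0.00609). In all 3 genes both libraries of 3 dpi lay below both of 1 dpi. The differences of cldn17 (-1.50, SE 0.42, adjusted p = 0.0209) and cldn5a (-1.59, SE 0.49, adjusted p = 0.0307) also passed. Leaving out a mock library left 1 in its group. Without mock replicate A of 1 dpi cldnf was at -1.97, and the calls of the other claudins did not hold. Without mock replicate A of 3 dpi cldnf was at -2.22, cldne at -2.06, cldni at -1.38 and cldn17 at -2.105. There cldn5a was at -0.87, its call did not hold, and the barrier-forming cldn11a was at -2.08. Without mock replicate B of 3 dpi cldn5a was at -2.95 (adjusted p = 0.00168) and cldn17 no longer passed. For cldn11a the mock libraries at 3 dpi were themselves unlike, 10.6 and 2.86 CPM. The claudin median was -0.31, against -0.01 over all tested genes. Groups were apart for 12 lower claudins, against 34.8% of all tested genes, and for 3 higher ones, against 33.5% of all.

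In particle and in control embryos no claudin passed between the times with edgeR or limma-voom, against 2.03% of all tested genes in particle embryos, of which 1.53% were higher and 0.5% lower, and 1.36% in control embryos, of which 1.16% were higher and 0.203% lower. At an unadjusted p below 0.05 there were 3 in particle embryos, against 18.5% of all tested genes, and DESeq2 called 1, cldn1, against 6.24% of all. The smallest p values in particle embryos were those of cldn1, a claudin of the skin barrier in mammals (0.69 on the log2 scale, SE 0.22, adjusted p = 0.113), cldni (-0.54, SE 0.20, adjusted p = 0.159), cldn5b (-0.73, SE 0.34, adjusted p = 0.265) and cldn12 (-0.21, SE 0.12, adjusted p = 0.391). The level of cldn1 was 28.9, 23.7 and 19.8 CPM at 3 dpi, against 14.3, 15.3 and 15.2 CPM at 1 dpi, without overlap. In control embryos 4 claudins had an unadjusted p below 0.05, against 18% of all tested genes, and DESeq2 called 0, against 5.5% of all. They were cldn15a (1.63, SE 0.61, adjusted p = 0.19), cldnc (2.09, SE 0.88, adjusted p = 0.236), cldn15la (2.21, SE 0.98, adjusted p = 0.255) and cldna (0.94, SE 0.44, adjusted p = 0.277), all higher at 3 dpi. With the replicate block cldna passed in control embryos (0.99, adjusted p = 0.019), against 6.34% of all tested genes.

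Particle embryos at 1 dpi differed from mock embryos in no claudin past the threshold, with 0 by edgeR, DESeq2 and limma-voom against 0% of all tested genes with edgeR, and 0 at an unadjusted p below 0.05, against 2.28% of all. The smallest p values were those of cldn17 (-0.71 on the log2 scale, SE 0.36), cldnf (-0.50, SE 0.31), cldn5a (0.62, SE 0.40) and cldn11b (-0.38, SE 0.29), each with an adjusted p of 0.924. Groups were apart for 2 lower claudins, cldn17 and cldnf, against 13.2% of all tested genes, and for 2 higher ones, cldn5a and cldn10a, against 13.1%. The level of cldn17 was 22.9, 21.6 and 11.7 CPM in particle embryos, against 34.95 and 26.2 CPM in mock embryos. That of cldnf was 9.44, 7.27 and 6.42 CPM in particle embryos, against 12.02 and 9.704 CPM in mock embryos. All 7 tested lettered claudins had a value below 0, with a median of -0.27, but of them only cldnf had its groups apart. The summed level of the lettered claudins was 293.6, 288.3 and 182.3 CPM in particle embryos, against 324.5 and 257.5 CPM in mock embryos. The lowest of these was particle replicate C, and mock embryos have no replicate C. The median and the share below 0 over all tested genes are not given for this comparison, so these values are not read as a result about lettered claudins.

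Against control embryos at 1 dpi the particle embryos again had no claudin past the threshold with any of the 3 tools, against 0.00423% of all tested genes with edgeR. At an unadjusted p below 0.05 there was 1, against 2.19% of all tested genes, and 21 of 25 values were above 0, with a median of 0.19, against -0.02 over all tested genes. No claudin had groups apart, against 2.82% of all tested genes higher and 2.7% lower. The smallest p values belonged to cldn15a (1.82 on the log2 scale, SE 0.60), cldnc (1.88, SE 0.87), cldn15lb (1.34, SE 0.63) and cldnf (0.59, SE 0.28), all with an adjusted p of 1. The level of cldn15a was 1.35 to 10.3 CPM in particle embryos, with replicate A the highest, against 0.724 to 1.78 CPM in control embryos. The value of cldn15lb rested on particle replicate A and was -0.11 without it.

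**Figure D4:**
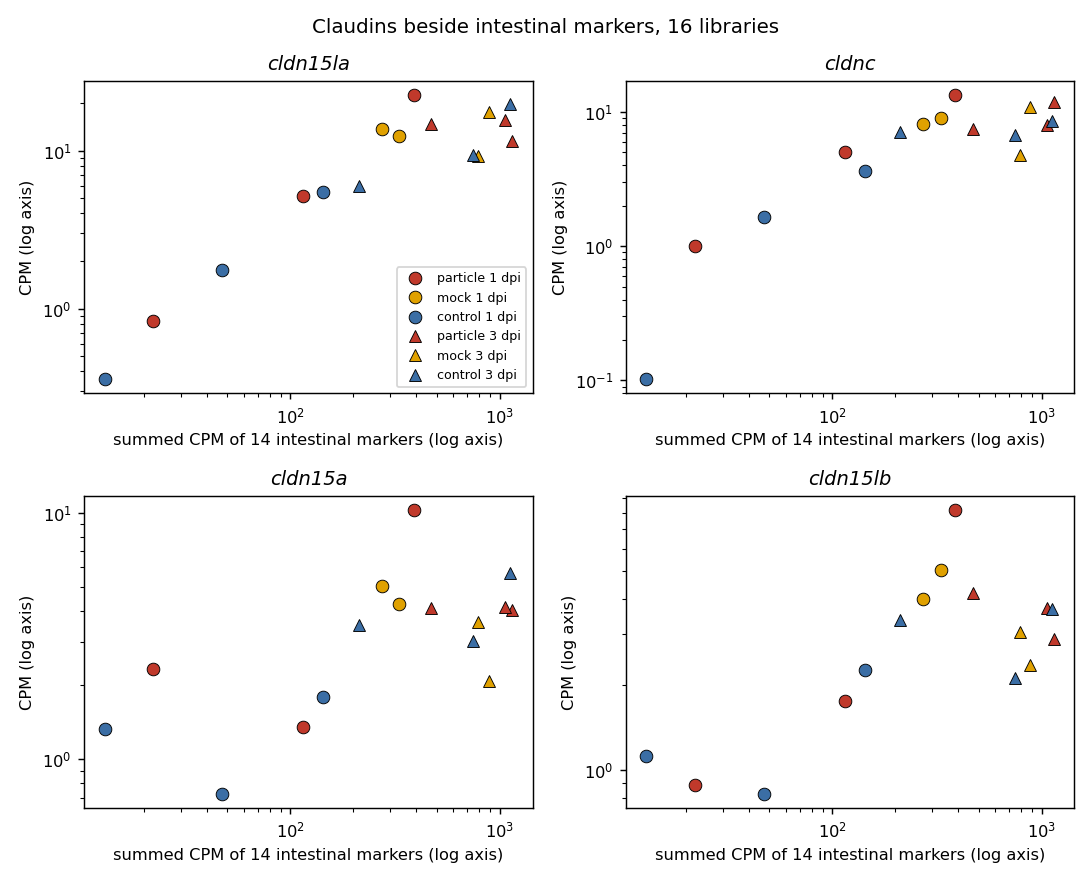
CPM of cldn15la, cldnc, cldn15a and cldn15lb (vertical, log axis) against the summed CPM of 14 intestinal epithelium markers (horizontal, log axis) in 16 libraries; circles are 1 dpi and triangles 3 dpi, in red for particle, yellow for mock and blue for control embryos. The replicate C circles of particle and control embryos lie lowest on the horizontal axis, at 22.1 and 12.96 CPM.

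The large values at 1 dpi came from claudins that varied most between libraries of 1 group. The level of cldn15la was 22.4, 5.18 and 0.83 CPM in particle embryos at 1 dpi, 12.4 and 13.6 CPM in mock embryos and 5.504, 1.76 and 0.357 CPM in control embryos. That of cldnc was 13.3, 5.05 and 0.996 CPM in particle embryos, 9.05 and 8.12 CPM in mock embryos and 3.64, 1.66 and 0.102 CPM in control embryos. In both genes replicate A was the highest and replicate C the lowest of the particle and of the control libraries. The summed level of 14 intestinal epithelium markers was 387.6, 114.9 and 22.1 CPM in particle embryos at 1 dpi, 331 and 273 CPM in mock embryos and 142.7, 47.4 and 12.96 CPM in control embryos. In particle and control embryos the libraries ranked as for both genes. Between the mock libraries replicate A was higher for the markers and cldnc, and replicate B for cldn15la. The median difference of the intestinal markers at 1 dpi was 1.09 (log2) between particle and control embryos and 2.14 between mock and control embryos, with 12 and 13 of 14 markers above 0, and no marker was at 0 in a whole group. The summed level of 13 hepatocyte markers was 795, 516 and 106 CPM in particle embryos at 1 dpi, 809 and 884 CPM in mock embryos and 424, 388 and 54.65 CPM in control embryos. Of the 12 tested, all were above 0 in mock against control embryos at 1 dpi, with a median of 3.40 and 10 at an unadjusted p below 0.05, and all in particle against control embryos, with a median of 2.02, though 0 passed in either. The share of all tested genes higher in mock embryos at this p is given above, with the claudins. In mock against control embryos at 1 dpi 15 of 15 ionocyte and 0 of 10 lens markers were above 0. Summed levels overlapped in both lists. The ionocyte markers had 1851 and 1646 CPM in mock embryos and 1700, 1574 and 851.6 CPM in control embryos. Over all libraries most counts of this list were those of atp1a1a.1 and atp1a1a.2. The lens markers had 290.4 and 499.4 CPM in mock embryos and 452.2, 1130 and 899.3 CPM in control embryos. Counts above 0 in the remaining lists and over all tested genes are not given for this comparison. The part of these tissues in the claudin differences was not tested. At 3 dpi cldn15la had 11.6, 15.6 and 14.7 CPM in particle embryos, 9.25 and 17.4 CPM in mock embryos and 9.32, 19.7 and 6.003 CPM in control embryos, so the groups overlapped. The intestinal markers then summed to 1148, 1063 and 470.4 CPM in particle embryos, 789.7 and 884.8 CPM in mock embryos and 743.6, 1124 and 211.8 CPM in control embryos. Their libraries ranked as for cldn15la in mock and control embryos, but not in particle embryos.

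The 6 claudins that gave the most reads, which does not rank their transcripts since length is not corrected for, were cldni, cldn19, cldn7b, cldn12, cldn7a and cldne. Of these, cldni and cldne passed in mock embryos between the times with edgeR over all libraries, and cldn19, cldn7b, cldn12 and cldn7a passed in no comparison of that fit. Among the A and B libraries alone cldn7b did pass, in particle against mock embryos at 3 dpi and in mock embryos between the times. The level of cldn19, known from the mammalian kidney and eye, was 76.9, 75.7 and 62.4 CPM in particle embryos at 1 dpi, 71.5 and 74.7 CPM in mock embryos and 83.3, 74.8 and 53.8 CPM in control embryos. At 3 dpi it was 66.6, 69.1 and 62.4 CPM in particle embryos, 72.3 and 63.4 CPM in mock embryos and 65.1, 85.6 and 76.5 CPM in control embryos. All groups overlapped within a time. The level of cldn12 was 64.7, 61.8 and 63.7 CPM in particle embryos at 1 dpi, 67.1 and 53.9 CPM in mock embryos and 62.9, 54.3 and 70.8 CPM in control embryos. At 3 dpi it was 53.5, 55.99 and 55.2 CPM in particle embryos, 60.5 and 61.2 CPM in mock embryos and 61.6, 55.5 and 59.99 CPM in control embryos. Between treatments the differences of cldn19 and cldn12 ran from -0.20 to 0.07 on the log2 scale. In particle embryos cldn7b had 81.96, 79.1 and 39.1 CPM at 1 dpi and 70.1, 73.3 and 58.4 CPM at 3 dpi. For cldn7a at 1 dpi the values were 48.9, 55.1 and 41.8 CPM in particle embryos, 42.8 and 49.6 CPM in mock embryos and 59.9, 53.05 and 32.1 CPM in control embryos, all overlapping. The level of cldni at 1 dpi was 109.5, 122 and 89.05 CPM in particle embryos, 126 and 106 CPM in mock embryos and 88.3, 91.9 and 82.2 CPM in control embryos, and particle embryos at 3 dpi had 62.8, 75.5 and 81.8 CPM. For cldne at 1 dpi particle embryos had 67.9, 62.3 and 41.5 CPM and control embryos 57.05, 47.6 and 25.8 CPM.

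The remaining changes between times, tested as interactions, passed for no claudin with edgeR or limma-voom. For the particle minus mock difference, 0.00423% of all tested genes passed with edgeR, 4 claudins had an unadjusted p below 0.05, against 23.9% of all, and DESeq2 called 2, against 7.28% of all. The smallest p values were those of cldnf (1.83 on the log2 scale, SE 0.47, adjusted p = 0.0694), cldn17 (1.65, SE 0.53, adjusted p = 0.107), cldne (1.25, SE 0.45, adjusted p = 0.131) and cldnh (1.26, SE 0.57, adjusted p = 0.2). Without mock replicate A of 3 dpi no claudin passed, against 0% of all tested genes, and cldnf was at 1.90 (adjusted p = 0.245), while without mock replicate B cldn5a passed at 2.46 (adjusted p = 0.0181), against 11.4% of all. For the particle minus control difference, 0% of all tested genes passed, 1 claudin had an unadjusted p below 0.05, against 0.876% of all, namely cldn15a (-1.81, adjusted p = 1), and DESeq2 called 0.

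Claudins act with other junction proteins, and of a list of 51 tight junction scaffold and transmembrane partner genes 49 were tested. In particle against mock embryos at 3 dpi 4 of them were higher and none lower, against 5.29% and 3.4% of all tested genes: crb3b, a Crumbs polarity protein, oclnb, an occludin, mpp5a, the Pals1 scaffold, and arhgef18a, a guanine nucleotide exchange factor of the junction. The level of oclnb was 17.6, 14.8 and 11.9 CPM in particle embryos, against 4.36 and 5.47 CPM in mock embryos (1.59 on the log2 scale, SE 0.36, adjusted p = 0.0234). The gene crb3b rose by 1.82 (SE 0.39, adjusted p = 0.0208), arhgef18a by 1.38 (SE 0.31, adjusted p = 0.0222) and mpp5a by 1.09 (SE 0.28, adjusted p = 0.0329). Levels of crb3b at 3 dpi were low, at 2.67 to 3.32 CPM in particle embryos and 0.544 and 1.17 CPM in mock embryos. In these mock libraries 3 counts correspond to 0.327 and 0.391 CPM. These calls did not hold without mock replicate A, a fit that leaves 1 mock library. In mock against control embryos at 3 dpi crb3b was the 1 partner gene that passed, against 1.63% of all tested genes, at -1.78 (SE 0.40, adjusted p = 0.0438). It did not pass without mock replicate A. The partner medians were 0.28 for particle against mock embryos at 3 dpi, -0.17 for mock against control embryos at 3 dpi and 0.23 for mock against control embryos at 1 dpi.

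**Figure D5:**
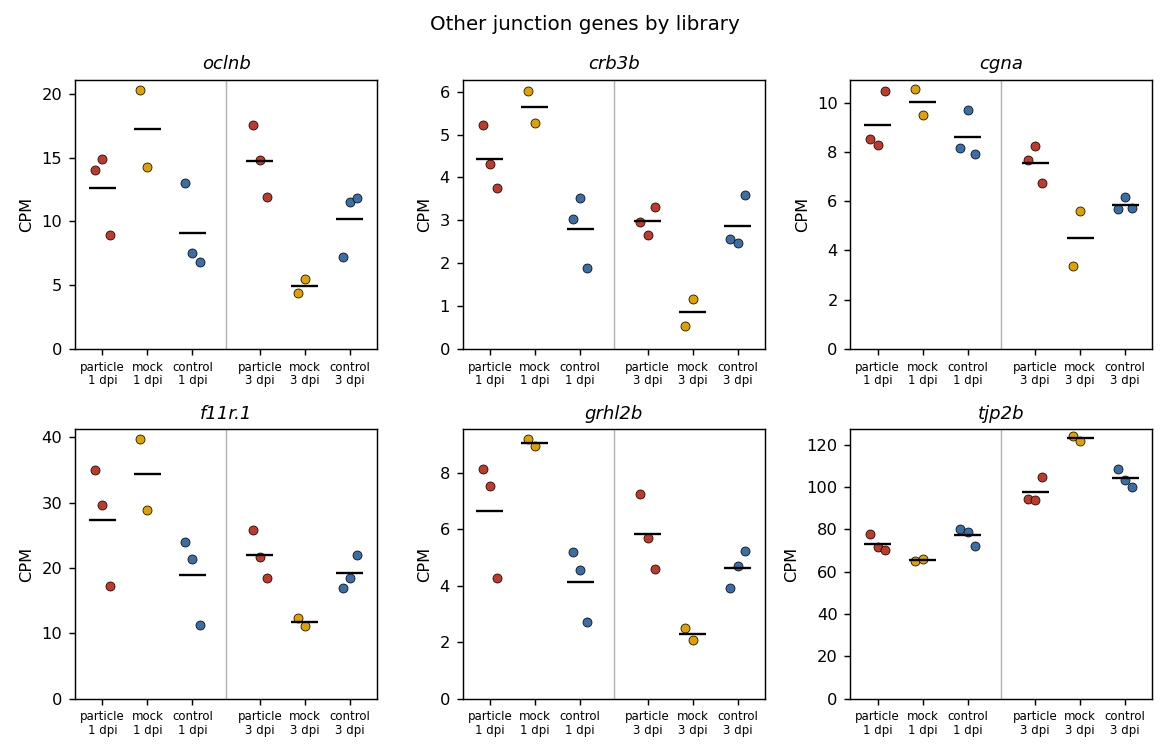
CPM of 6 other junction genes by library, in the layout of the claudin panels (particle red, mock yellow, control blue, bars group means). In oclnb, crb3b, cgna, f11r.1 and grhl2b the mock libraries at 3 dpi lie below every particle and control library of that time, while in tjp2b they lie above them. The 6 genes were chosen for display, and in other junction genes, such as tjp1a and cgnb, the groups overlapped. Mock and control embryos at 3 dpi were apart, with mock lower, for 20.7% of all tested genes.

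Between mock embryos at 3 dpi and at 1 dpi, 12 of the 49 partner genes were lower and 4 higher, against 12.5% and 11.1% of all tested genes. Without mock replicate A of 3 dpi, a fit that leaves 1 library in that group, only the calls of crb3b and tjp2b held. The share of all tested genes that passed in that fit is not given here. The values that follow are from the fit of all libraries. Those lower with the smallest p were crb3b (-2.73, SE 0.41, adjusted p = 0.00115), oclnb (-1.82, SE 0.38, adjusted p = 0.00526), cgna, a cingulin (-1.17, SE 0.25, adjusted p = 0.00584), and f11r.1, a junctional adhesion molecule (-1.55, SE 0.36, adjusted p = 0.00875). The 4 higher ones were the scaffold genes tjp2b (0.91, SE 0.13, adjusted p = 0.000805), tjp1b (0.56, SE 0.18, adjusted p = 0.0365) and magi1a (0.77, SE 0.26, adjusted p = 0.0438), with the adhesion molecule gene jam2a (1.43, SE 0.36, adjusted p = 0.0133). Of 19 adherens junction and claudin-regulating genes, 8 were lower between these times and none higher, against the same 12.5% and 11.1%. Without mock replicate A of 3 dpi, a fit that leaves 1 library in that group, not all of these calls held. The share of all tested genes that passed in that fit is not given here. Among the 8 that were lower in the fit of all libraries, with values of that fit, were ctnnb2, a beta-catenin (-1.22, SE 0.18, adjusted p = 0.00103), and grhl2b, a Grainyhead factor that in mice drives claudin genes (-1.98, SE 0.38, adjusted p = 0.00359). Others were ovol1, an epithelial transcription factor gene (-2.45, adjusted p = 0.0027), and spint1b, an inhibitor of epithelial proteases (-1.59, adjusted p = 0.00498). In particle against mock embryos at 3 dpi, ctnnb2 (0.73, SE 0.17, adjusted p = 0.0235) and grhl2b (1.34, SE 0.36, adjusted p = 0.0383) were the 2 of the 19 that passed, both higher, against 5.29% of all tested genes higher. Neither passed without mock replicate A. E-cadherin, cdh1, had a value of -0.08 (SE 0.29, adjusted p = 0.88) there.

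Markers of other tissues and cell types were read beside the claudins. Of 18 epidermis and periderm markers 8 were lower and 1 higher in mock embryos at 3 dpi than at 1 dpi. Of all tested genes 12.5% were lower and 11.1% higher. Most of these marker calls did not hold without mock replicate A of 3 dpi. The share of all tested genes that passed in that fit is not given here. The summed level of these markers was 17810 to 22080 CPM in mock embryos at 3 dpi and 18680 to 19300 CPM in mock embryos at 1 dpi. For particle against mock embryos at 3 dpi, 0 of these 18 passed, 15 were above 0 with a median of 0.38, and the summed level was 18890 to 28000 CPM in particle embryos. Of 16 vascular endothelium markers 0 passed in that comparison, the median was 0.26, and the summed level was 142 to 200 CPM in particle embryos and 131 to 153 CPM in mock embryos. The summed level of 7 inner ear markers was 73.2 and 80.8 CPM in mock embryos at 3 dpi, against 159 and 193 CPM in mock embryos at 1 dpi. At 3 dpi it was 154 to 170.3 CPM in particle embryos and 112 to 189 CPM in control embryos. Both mock libraries were thus below every library of the other groups of that time, as they were for cldnf and cldne. Mock and control embryos at 3 dpi were apart, with mock lower, for 20.7% of all tested genes. The sum was mostly stm, with 24163 counts over all libraries, against 292 to 3001 for each other inner ear marker. Of these 7, 1 was higher in particle than in mock embryos at 3 dpi, against 5.29% of all tested genes. In mock against control embryos at 3 dpi 0 passed, against 1.63% of all. Between mock embryos at 3 dpi and at 1 dpi 2 were lower, against 12.5% of all. Without mock replicate A of 3 dpi the first call did not hold, nor did both of the last. The medians of the 7 markers in these comparisons were 0.59, -0.58 and -0.81 (log2), and the first 2 were -0.06 and 0.07 without mock replicate A.

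Of 15 ionocyte markers, 14 were above 0 in particle against mock embryos at 3 dpi with a median of 1.07, and 1 was above 0 in mock against control embryos at 3 dpi with a median of -0.76, while 0 passed in either. Their summed level was 1565 to 2159 CPM in particle embryos, 1584 to 1775 CPM in mock embryos and 1626 to 1865 CPM in control embryos. The sum was mostly atp1a1a.1 and atp1a1a.2, with 148240 and 123614 counts over all libraries, against 640 to 40833 for each other ionocyte marker. It therefore says little about the other markers of this list. Of 14 pronephros markers none passed in these comparisons, with medians of 0.21 and -0.02 and summed levels of 288 to 295 CPM in particle, 236 to 275 CPM in mock and 263 to 303 CPM in control embryos. The 13 hepatocyte markers (12 tested), 10 lens markers and 9 myelin markers had medians of 1.21, 0.26 and -0.31 in particle against mock embryos at 3 dpi, where 1 lens marker passed, higher, and 0 of the others. All medians and calls of this paragraph, and the epidermis and vascular medians above, include mock replicate A of 3 dpi. Without that library they are not given here, and neither are the shares of all tested genes above 0. They are therefore not read as differences between tissues. No marker of any of these lists was at 0 in a whole group. Their part in the differences of cldnf, cldne and cldn5a was not tested.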

How the data were processed

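RNA-seq read counts per gene were used from 16 libraries. RNA came from TRIZOL extraction with a DNase I step, per the labels' protocols. Per the submitters' processing notes, Bowtie2, SAMtools and DESeq were used with the GRCz10 build, with no versions or settings. Sources used here do not give the counter, annotation, use of strand or handling of shared reads. The deposited tables hold whole-number counts per gene. The unit was noted under expected counts only since the authors put a size factor with decimals at the foot of each deposited column. That line and a blank one, 2 per table, were left out, and rounding changed no value. The 31388 genes lie on 26 chromosome names.

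Groups and replicates follow the titles, from which a header (particle_1dpi B) and a characteristic (control_1dpi C) depart. Between libraries of a group chi-square per degree of freedom ran from 6.02 to 98.4, so none repeats another. P-values measure the spread between these libraries.

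In R 4.3.3 with edgeR 4.0.16, genes were kept by filterByExpr (minimum count 10, minimum total 15), which left 23623. TMM scaling and robust quasi-likelihood tests on the 6 group means were used over all libraries, with Benjamini-Hochberg adjustment over all tested genes and a threshold of 0.05. The test was checked on simulated counts with 200 changed genes and seed 1. Fold changes are fitted log2 values. CPM ± SD values were computed from the counts.

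The claudins named are those past the threshold, or the 4 with the smallest p where fewer than 4 passed, and the 6 with the most reads, by mean CPM, are given by library, as are further libraries' values that results turn on. Up to 4 other junction genes past the threshold are named per list and direction in a comparison. The gene cdh1 was added after its values were seen. The claudins, gene lists and rules were chosen with earlier results of these data known. Among those not matched in the tables were mpdz, pard3ba, ybx3, spint1a, ovol2 and wnk4a of the junction lists. The gene cdx1b is in the list of claudin regulators and in that of intestinal markers. 

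Alternatives were RLE size factors, DESeq2 1.42.0, limma-voom (limma 3.58.1), no filter, only the groups compared, only libraries of the same time, replicates A and B alone, a replicate block, and each library left out in turn. Chosen after seeing the data was replicates A and B without mock_3dpi A. Same-lettered libraries deviated together in particle against control embryos at 1 dpi (correlations 0.571, 0.305 and 0.745 for A, B and C) and in particle embryos between times (0.406, 0.112 and 0.542), so letters were read as pairs there, and the block called 0 claudins in both. Figures were drawn with python 3.11.15 and matplotlib 3.10.9. Precision for low genes is limited by counts: 3 counts correspond to 0.144 to 0.391 CPM, and this covers counting error only.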

Additional observations from a re-analysis of the deposited data

How the results depend on the processing

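RLE size factors and no filter kept every count of claudins within 1.5 times. For particle against mock embryos at 3 dpi, where 2 claudins passed, limma-voom gave 1, only the groups compared 0, only libraries of the same time 0, the replicate block 5, replicates A and B 6, and these without mock_3dpi A 8. The range with each library left out was 0 to 2. For mock embryos between times, where 5 passed, replicates A and B gave 8, also without mock_3dpi A 8, and leaving out a library 1 to 5. Where 0 passed, DESeq2 gave 1 for mock against control embryos at 3 dpi (0 to 1 with a library left out), and 1 for particle embryos between times, as did replicates A and B alone, with 1. In particle embryos these were different claudins, cldn1 with DESeq2 (0.67, higher at 3 dpi) and cldni with replicates A and B alone (-0.76, lower). The block gave 1 in control embryos between times. For the change of the particle minus mock difference DESeq2 gave 2, the block 2, replicates A and B 4, these without mock_3dpi A 5, and leaving out a library 0 to 1. For the change of the mock minus control difference DESeq2 gave 2, the block 4, replicates A and B without mock_3dpi A 1, and leaving out a library 0 to 2. Leaving out a library gave 0 to 0 in every other comparison. Shares of all tested genes that passed in the same fits are given above for some of these settings only. The counts here are therefore not read as a result about claudins in particular. The cause of these changes was not tested. The value of cldn15lb in particle against control embryos at 1 dpi turned to -0.11 without particle_1dpi replicate A, and ran up to 1.84 with other libraries left out. Of the alternative values of single claudins 662 kept direction and side of the threshold, 27 came to pass, 22 no longer passed and 1 reversed. Over its alternatives cldnf between times in mock embryos ran from -2.27 to -1.97 with adjusted p up to 0.0273, and cldn5a in particle against mock embryos at 3 dpi from 0.99 to 3.08 with adjusted p from 0.00191 to 0.353. In comparisons with mock embryos only 2 letters can pair, with correlations from -0.095 to 0.206, so the letters are read as names there. They are also read as names for particle against control embryos at 3 dpi and for control embryos between times. In these replicate A gave -0.093 and -0.005 and replicate B 0.123 and 0.094. Replicate C gave 0.569 and 0.321, so the C libraries did deviate together.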

Other observations

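The replicate C libraries at 1 dpi, which the headers call combined, differed from A and B in opposite ways for different claudins. The level of cldn5b, a vascular claudin, was 14.3, 14.6 and 29.9 CPM in replicates A, B and C of particle embryos, and 15.04, 12.8 and 30.6 CPM in those of control embryos, so that C was the highest in both. The 2 mock libraries had 13.5 and 15.05 CPM. For cldn5a, replicate C was also the highest, at 14.8 CPM in particle embryos and 11.5 CPM in control embryos. For cldn7b it was the lowest, at 39.1 CPM in particle embryos and 30.8 CPM in control embryos. The summed level of 16 vascular endothelium markers was 167.4 CPM in replicate C of particle embryos and 173.4 CPM in that of control embryos, against 166.4 to 218.3 CPM in replicates A and B of particle embryos and 154.3 to 168.1 CPM in those of control embryos. At 3 dpi cldn5b had 10.01, 12.04 and 13.6 CPM in particle embryos and 13.5, 10.4 and 12.9 CPM in control embryos. No test was made of these differences between libraries.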
